A study of Mus musculus with 96 samples.

Results

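CC038 is an inbred strain of the Collaborative Cross, a panel of mouse lines bred from several founder strains so that each line carries its own fixed mosaic of their genomes. The 4 CC038 libraries were taken by their strain label, the strain itself having been picked with earlier results of these data known, and are 4 of 96 samples in a total RNA-seq survey of cultured, mineralizing calvarial osteoblasts from 42 strains. Each of the 38 other strains with at least 2 libraries (88 libraries in all) counted equally in the mean that CC038 was set against, and ranges are given over all 91 libraries that were not CC038. Every strain was handled alike: calvaria of pups 3 to 5 days old were digested with trypsin and collagenase, the later digest fractions were pooled and plated, and the cells were held for 10 days in differentiation medium (ascorbate plus a phosphate source) before RNA was taken. The labels name no transgene, deletion or drug in any strain, CC038 included, and strain is the only labelled difference between the groups. A digest of this kind is plated without sorting, so the cultures can hold fibroblasts, osteoclast precursors, macrophages and fat cells beside osteoblasts, and in such bulk RNA fewer cells of a type and less RNA per cell cannot be told apart.

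The CC038 libraries are named replicates 1 to 4, in the order of their accessions, and CC038 values are given in that order throughout. The sample titles carry a running number, which is consecutive for replicates 2 and 3 and far apart for the others, and the labels say neither what it stands for nor whether the libraries came from separate litters. The p-values therefore measure only the spread between samples of the same strain, unless another error is named. That spread was pooled over the 39 strains compared, so it is not that of the CC038 libraries alone. Xist, the RNA that coats the inactive X chromosome, stood at 16.5, 0.146, 15.5 and 0.0182 scaled TPM, and the Y-linked helicase Ddx3y at 0.207, 32.6, 0.0669 and 35.5. Replicates 1 and 3 thus had the Xist pattern and replicates 2 and 4 the Y-linked one, so the strain is represented by cells of at least 2 animals. Library depth is unknown because the deposited values are TPM, a share of all transcripts in the library that carries no read count. The number of genes at 1 TPM or more was 11636, 12073, 11999 and 11773 in the CC038 libraries and ran from 10783 to 12334 over all libraries.

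The label "osteoblast" was checked against marker genes. Col1a1, the main chain of bone collagen, stood at 2723, 2505, 3479 and 3302 scaled TPM in CC038, against 715 to 5129 (median 2318) in the other libraries. Alpl, the alkaline phosphatase of mineralizing cells, stood at 201.5, 94.2, 86.8 and 119, against 19.8 to 397 (median 175). Ibsp, bone sialoprotein, stood at 2874, 671, 741 and 1519.9, against 50.9 to 5471 (median 1628). All 4 CC038 libraries expressed these osteoblast genes within the range of the other strains, and none of the 3 passed the test (limma adjusted p 0.243, 0.228 and 0.639). The 3 belong to a list of 26 osteoblast and mineralization genes, given below, in which 6 were lower and 1 higher.

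Osteoblasts arise from mesenchymal progenitors that can also give rise to fat, cartilage and tendon cells. Runx2 and then Sp7 (osterix) commit a progenitor to bone, Wnt signals favour that commitment, and secreted antagonists of the SFRP, DKK and sclerostin kind restrain Wnt signals. Committed cells lay down fibrillar collagen, which is trimmed and crosslinked outside the cell and bound by small proteoglycans, and then mineralize it with the help of alkaline phosphatase and phosphate-handling enzymes.

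CC038 differed from the mean of the other strains in 2535 genes that were higher (16.1% of 15732 tested) and 2227 that were lower (14.2%). Together these 4762 genes (30.3%) were the largest count of any of the 39 strains. CC030 followed with 4726 and CC043 with 4619, and the median strain had 2111. Of the 2535 higher genes, 58 passed the filter on low values (0.5 TPM in 2 libraries) only through CC038. Those 58 could only be higher there. A log2 difference, CC038 minus the mean of the other strains, was called when its limma p, adjusted by Benjamini and Hochberg's method over all genes and all 39 strains, was below 0.05; every ± beside a difference is a standard error. The split moved with the scaling: 53.2% of the called genes were higher with the scaling used here, 62.7% with the TPM as deposited (2477 higher and 1474 lower) and 64.2% when TPM were rescaled over protein-coding genes (3013 higher and 1682 lower). The number of libraries also sets how many genes can be called, and the 5 other strains with 4 libraries had 2948 to 3853 calls.

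**Figure D1:**
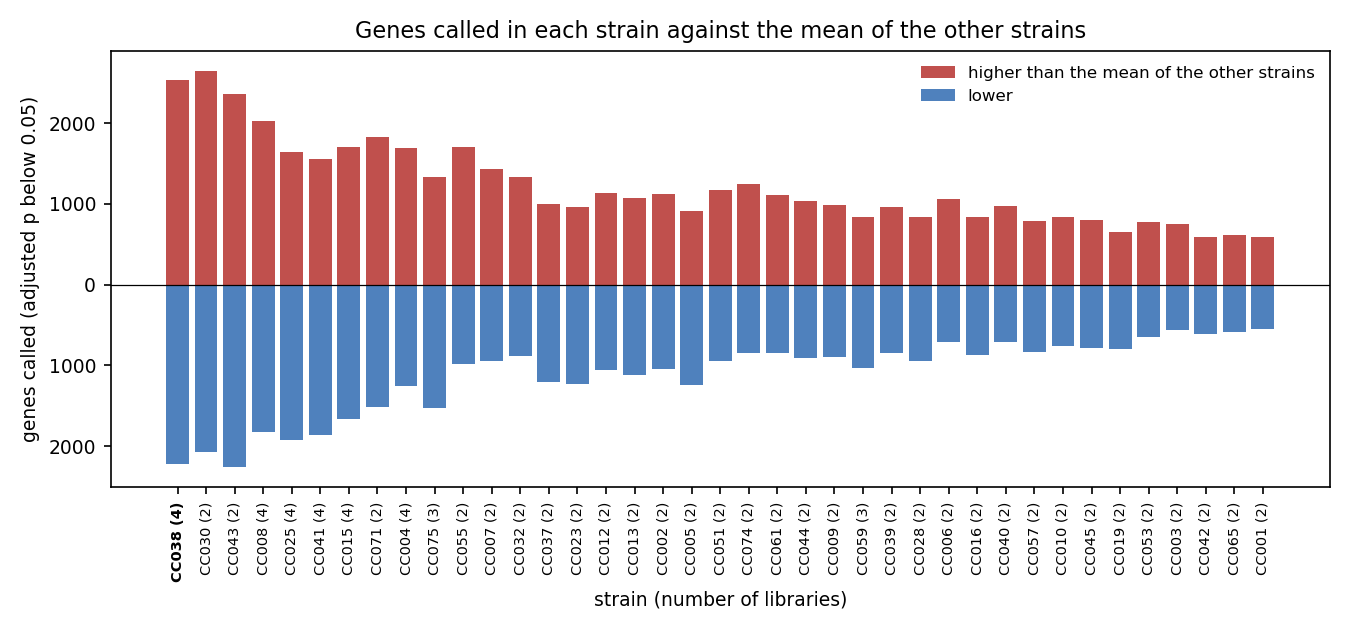
Genes called higher (up) and lower (down) in each of 39 strains against the mean of the other strains, by strain on the x axis with its number of libraries in brackets and genes on the y axis. CC038, in bold at the left, has 2535 genes higher and 2227 lower.

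A stricter question is whether CC038 stands apart from the way strains differ among themselves. With the spread between strain means as the error, 55 genes were higher (0.35%) and 8 lower (0.0509%) in CC038, a total of 63 (0.4%) that CC030 with 155 and CC043 exceeded. This error takes 1 mean per strain, so it does not see how far the 4 CC038 libraries lie from each other. Of the 55 higher genes, 6 had a CC038 mean of at least 5 scaled TPM, 18 lay between 1 and 5, and 31 lay below 1. The 55 include 24 genes that passed the filter on low values (0.5 TPM in 2 libraries) only through CC038 and so could only be higher there. In the expression profile as a whole, measured as 1 minus Pearson's correlation over the tested genes, the CC038 libraries lay 0.0141 (replicates 2 and 3) to 0.0316 (replicates 1 and 2) from each other. Replicate 1 was the least like the others of its strain, and its nearest library outside CC038, from CC023 at 0.0325, was about as close to it as replicate 2 was. The mean distance of CC038 from the other strains was 0.0533, rank 4 of the 39, against a median of 0.0464 over strains.

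In 36 genes (0.229%) all 4 CC038 libraries lay above all 91 other libraries, and in 10 (0.0636%) they lay below them. The other strains with 4 libraries had 5 to 13 such genes above and 3 to 10 below. Of the 36 genes above in CC038, 2 passed the filter on low values only through CC038 and so could only be higher there. The counts above and below depended on the scaling: with the TPM as deposited they were 14 and 6. Leaving out a CC038 library loosens the rule, so the counts can then only stay or rise. Without replicate 1 they were 76 and 29, and without replicate 4 they were 47 and 23. Less strictly, CC038 had the highest mean of the 39 strains in 670 genes (4.26%) and the lowest in 404 (2.57%). Plac8, which encodes a small cysteine-rich protein, had the widest gap. Its CC038 values were 10.7, 15, 20.4 and 10.5 scaled TPM, against 0 to 5.91 (median 0.622) in the other libraries. Each CC038 library was well above the highest of the others, with a difference of 3.52 ± 0.32 (adjusted p 3.58e-13). Gpx3, a secreted glutathione peroxidase that removes peroxides, stood at 208, 271, 297 and 263.6, against 32.7 to 166.8 (median 85.3). Its difference was 1.57 ± 0.11 (adjusted p 2.98e-17), and the ranges did not meet. Ctsk, cathepsin K, the collagen-cleaving protease best known from osteoclasts, stood at 378, 359.8, 375 and 384, against 68.4 to 305 (median 206.7). The 4 CC038 values were nearly level with each other and all above the other strains, with a difference of 0.94 ± 0.06 (adjusted p 4.32e-19).

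The remaining genes with wide gaps above were expressed at lower levels. Accs, a gene related to the plant enzyme 1-aminocyclopropane-1-carboxylate synthase, stood at 11.2, 11.6, 11.4 and 13.2 scaled TPM, against 1.98 to 9.89 (median 3.64), and differed by 1.59 ± 0.08. Pi16, a secreted protein of fibroblasts, stood at 4.68, 8.04, 9.76 and 4.54, against 0.0956 to 4.07 (median 0.518). Replicates 2 and 3 were the higher pair for Pi16, and all 4 were above the other strains. Wfikkn2, a secreted antagonist of the muscle growth inhibitor myostatin, stood at 1.73, 4.31, 4.22 and 2.37, against 0.217 to 1.48 (median 0.610). Fgl1, a fibrinogen-like protein known from liver, stood at 1.75, 2.37, 2.96 and 1.31, against 0 to 1.0 (median 0.0833), again without overlap. Fam69a, Abhd11os and Col6a5 completed the 10 named genes with the widest gaps, with differences of 1.24 ± 0.12, 1.69 ± 0.20 and 0.94 ± 0.05. Col6a5, a chain of collagen VI, stayed below 1 scaled TPM even in CC038 and passed the filter on low values only through it.

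Genes with all 4 CC038 libraries below every other library had smaller differences, between -1.18 for Wars and -0.46 for Abcb10 among the 9 with an established symbol. Wars, the tryptophanyl-tRNA synthetase, stood at 6.25, 8.36, 7.93 and 9.01 scaled TPM in CC038, against 9.49 to 31.3 (median 19.2). It differed by -1.18 ± 0.10 (adjusted p 3.06e-14), and its highest CC038 library lay just under the lowest of the others. Apip, an enzyme of methionine salvage, stood at 10.5, 9.0, 10.2 and 9.81, against 12.1 to 21.5 (median 16.7). Ptrh2, a mitochondrial peptidyl-tRNA hydrolase, stood at 3.06, 3.02, 2.59 and 2.93, against 3.63 to 7.54 (median 5.14). The gap was wider for Ptrh2 and Apip than for Wars, with differences of -0.76 ± 0.06 and -0.73 ± 0.07. Dnajc24, Abcb10, Pgam5, Pip4p2, Ascc2 and Mthfsd made up the remainder. Abcb10 is a transporter of the mitochondrial inner membrane and Pgam5 a mitochondrial phosphatase. Most of these 46 separated genes were not neighbours in the gene order of the reference annotation. Spire2 and Spata33, with 5 genes between them, and Pip4p2 and Pdp1, with 9, were the closest pairs.

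**Figure D2:**
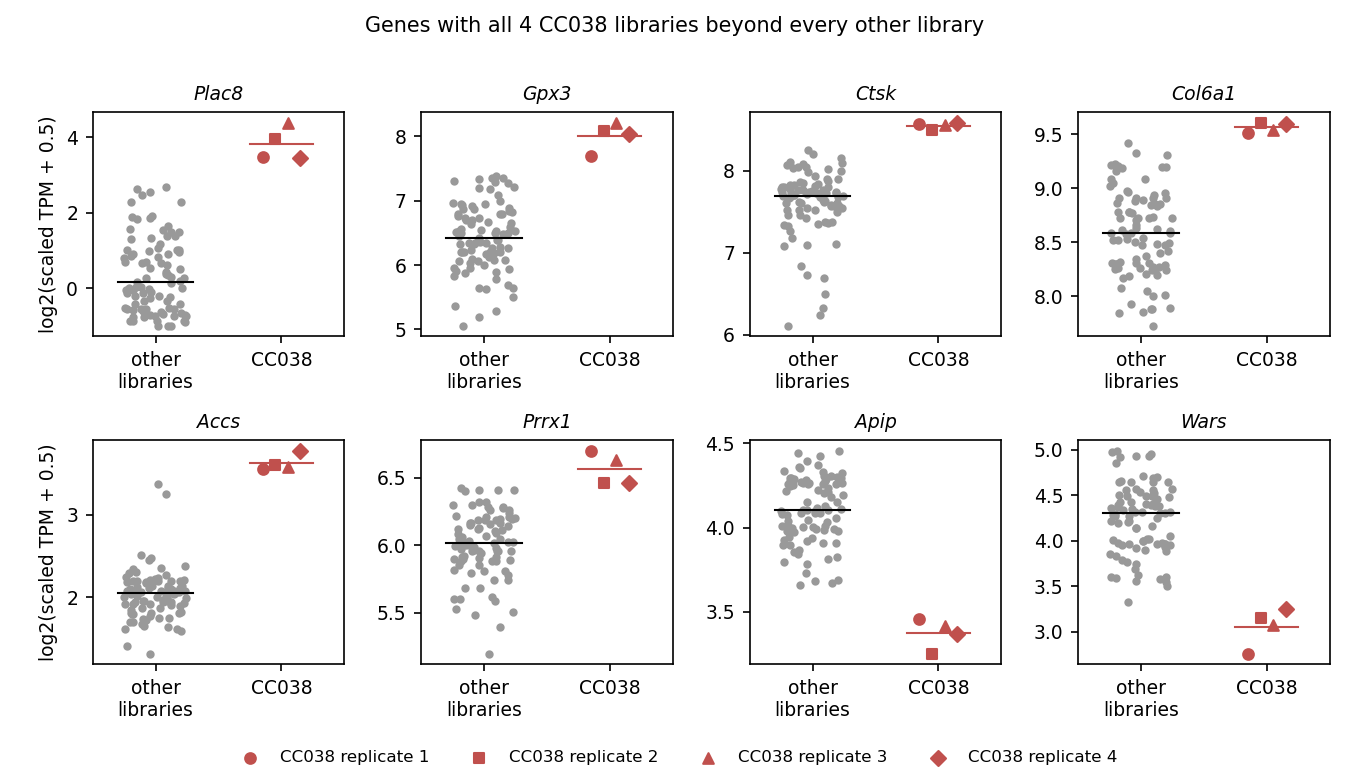
Levels of 8 genes on the y axis, as log2 of scaled TPM plus 0.5, in the 91 other libraries (grey, black bar at the median) and in the 4 CC038 libraries (red, bar at the mean, one marker shape per library). The CC038 values lie above every grey point for Plac8, Gpx3, Ctsk, Col6a1, Accs and Prrx1 and below every grey point for Apip and Wars.

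Promoter sequence of genes that recur in the results is shown for context, as the 250 bases upstream of the RefSeq start site on the gene's own strand (RefSeq, GRCm38.p6). The genes are Ctsk and Col3a1, which make the collagen and protease group concrete, Ccl8, which had the largest rise of any named gene, and Sost, which was far lower. The sequence is that of the reference strain C57BL/6J, and the sequence of CC038 itself was not read. Capitals mark matches, on either strand, to 3 core promoter motifs, TATAAA (the TATA box), CCAAT and GGGCGG (the GC box).
Ctsk, chr3:95498960-95499209, plus strand: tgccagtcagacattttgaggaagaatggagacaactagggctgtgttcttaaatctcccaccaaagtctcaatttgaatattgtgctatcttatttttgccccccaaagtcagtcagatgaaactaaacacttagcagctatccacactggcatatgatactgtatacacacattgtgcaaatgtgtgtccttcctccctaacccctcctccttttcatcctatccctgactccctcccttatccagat
Col3a1, chr1:45311288-45311537, plus strand: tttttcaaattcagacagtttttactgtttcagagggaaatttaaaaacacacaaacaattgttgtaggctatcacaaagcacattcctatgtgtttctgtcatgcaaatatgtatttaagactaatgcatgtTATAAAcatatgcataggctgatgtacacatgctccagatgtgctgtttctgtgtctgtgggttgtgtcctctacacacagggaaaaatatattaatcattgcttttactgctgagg
Ccl8, chr11:82114935-82115184, plus strand: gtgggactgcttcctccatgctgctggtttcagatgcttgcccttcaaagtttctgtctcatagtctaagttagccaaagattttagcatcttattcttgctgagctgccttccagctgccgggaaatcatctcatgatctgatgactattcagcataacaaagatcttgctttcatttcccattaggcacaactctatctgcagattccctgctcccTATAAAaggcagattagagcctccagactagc
Sost, chr11:101967016-101967265, minus strand: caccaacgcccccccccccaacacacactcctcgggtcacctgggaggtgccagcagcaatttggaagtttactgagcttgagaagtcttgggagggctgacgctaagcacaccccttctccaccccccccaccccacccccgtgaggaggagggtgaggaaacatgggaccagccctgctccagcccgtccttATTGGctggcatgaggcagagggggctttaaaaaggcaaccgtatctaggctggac
Ccl8 held TATAAA starting 32 bases before the start site and Col3a1 held it starting 117 bases before. Sost held CCAAT on the opposite strand, starting 56 bases before the start site, and Ctsk held none of the 3. Over all 32851 RefSeq promoter windows of this length, 12.4% held TATAAA, 33.8% CCAAT and 32.7% GGGCGG, so these matches are a description of the windows and no more. Sfrp1 and Hp are named only.

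Collagens and collagen-binding matrix genes were higher in CC038: 17 of 29 members rose and 0 fell, with a median difference of 0.51, against 0.00 over all genes. For this and every later list, the shares of all tested genes to compare with are 16.1% higher and 14.2% lower. Col3a1, the fibrillar collagen of soft connective tissue, stood at 3430.2, 4289, 3809 and 3539 scaled TPM, against 780.5 to 6038 (median 1435). Its difference was 1.27 ± 0.17 (adjusted p 4.76e-08), the highest of the 39 strains, although single libraries of other strains overlapped it. Col6a1 and Col6a2 encode chains of collagen VI, which forms beaded filaments around cells. Col6a1 stood at 729, 779.7, 742 and 775, against 211.4 to 686 (median 384), and the groups did not overlap. Col6a2 stood at 310.3, 378, 421 and 428, against 82.0 to 386 (median 174), with replicates 1 and 2 inside the range of the others. Col16a1, a collagen that sits on fibril surfaces, stood at 194, 315, 305 and 214, against 45.1 to 199 (median 88.8), with only replicate 1 inside that range. Col8a1, Col12a1, Col14a1, Fbn1 (fibrillin-1, the core of microfibrils), Thbs2 and Thbs3 also rose, by 1.31 ± 0.20, 0.85 ± 0.10, 2.07 ± 0.37, 1.40 ± 0.27, 1.03 ± 0.14 and 1.22 ± 0.15. Col1a2, the second chain of bone collagen, rose by 0.48 ± 0.13 (adjusted p 0.00492), whereas Col1a1 and Col5a1 did not pass, at 0.47 ± 0.26 and -0.11 ± 0.13. When each CC038 library was left out in turn 15 of the 17 calls were kept in every case, and with the range of title numbers as a covariate 15 were kept.

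The small proteoglycans that coat collagen fibrils followed, with 8 of 12 members higher and 1 lower (Chad, below 1 scaled TPM in all 4 libraries, a call lost without replicate 2 or 4). Dcn (decorin) stood at 631, 815, 882 and 687 scaled TPM, against 152.8 to 955 (median 315). Prelp stood at 15.8, 22.7, 32.1 and 19.6, against 2.27 to 21.4 (median 7.03). Both groups overlapped only at the top of the other strains' range, and the differences were 1.18 ± 0.17 and 1.66 ± 0.21. Lum (lumican), Ogn, Aspn and Epyc rose by 0.74 ± 0.11, 0.69 ± 0.15, 0.61 ± 0.14 and 1.03 ± 0.23, while Bgn (biglycan) did not pass, at 0.08 ± 0.09.

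Enzymes that modify and crosslink collagen were higher in 11 of 27 and lower in 1. P3h3, a prolyl 3-hydroxylase family member, stood at 94.5, 101, 104 and 95.8 scaled TPM, against 50.6 to 91.8 (median 66.8), without overlap and with a difference of 0.54 ± 0.07. Lox, the lysyl oxidase that starts crosslinks, stood at 374, 464, 473 and 506, against 115 to 739 (median 241). CC038 had the highest Lox of the 39 strains, at 0.84 ± 0.15 (adjusted p 2.17e-05). Crtap, Plod2, Bmp1 and Pcolce, which act in proline and lysine hydroxylation and in trimming the procollagen ends, rose by 0.40 ± 0.06, 0.78 ± 0.15, 0.66 ± 0.09 and 0.75 ± 0.10. Loxl4 was the lower member, and its call was lost without replicate 2, 3 or 4.

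Matrix proteases and their inhibitors had 9 of 20 tested members higher and 0 lower. In every leave-one-out fit 7 of the 9 calls were kept. The summed level of the list was 2197, 2175, 1981 and 2890 scaled TPM, against strain means of 1395 to 4240 with a median of 2199. CC038 ranked 13 of the 39 strains by that sum. Adamts1, which cleaves proteoglycans, stood at 44.8, 67.9, 60.2 and 59.6 scaled TPM, against 6.87 to 46.1 (median 19.5). Mmp19 stood at 17.1, 22.0, 20.3 and 19.8, against 4.38 to 21.3 (median 8.38). Only replicate 1 fell inside the range of the others for Adamts1, and the differences were 1.57 ± 0.22 and 1.17 ± 0.14. Mmp9, Mmp23, Adamts5 and the inhibitor Timp2 rose by 1.77 ± 0.33, 0.97 ± 0.12, 1.28 ± 0.21 and 0.50 ± 0.07. Of 14 cathepsins and lysosomal proteases 6 were higher and 1, Ctsa at -0.34 ± 0.09, was lower. Ctsh and Lgmn (legumain) rose beside Ctsk, by 0.86 ± 0.10 and 1.10 ± 0.18. The osteoclast marker list, which also holds Ctsk and Mmp9, had 4 of 8 tested members higher and 1 lower. Acp5, the tartrate-resistant phosphatase of osteoclasts, was only slightly higher at 0.39 ± 0.12, and its call was lost without replicate 2 or 3. Atp6v0d2, a proton pump subunit of osteoclasts, was at 0.307, 0.571, 0.271 and 0.625, against 0.312 to 13.2 (median 1.46), and fell by 1.28 ± 0.25 on the log2 scale, the lowest of the 39 strains.

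**Figure D3:**
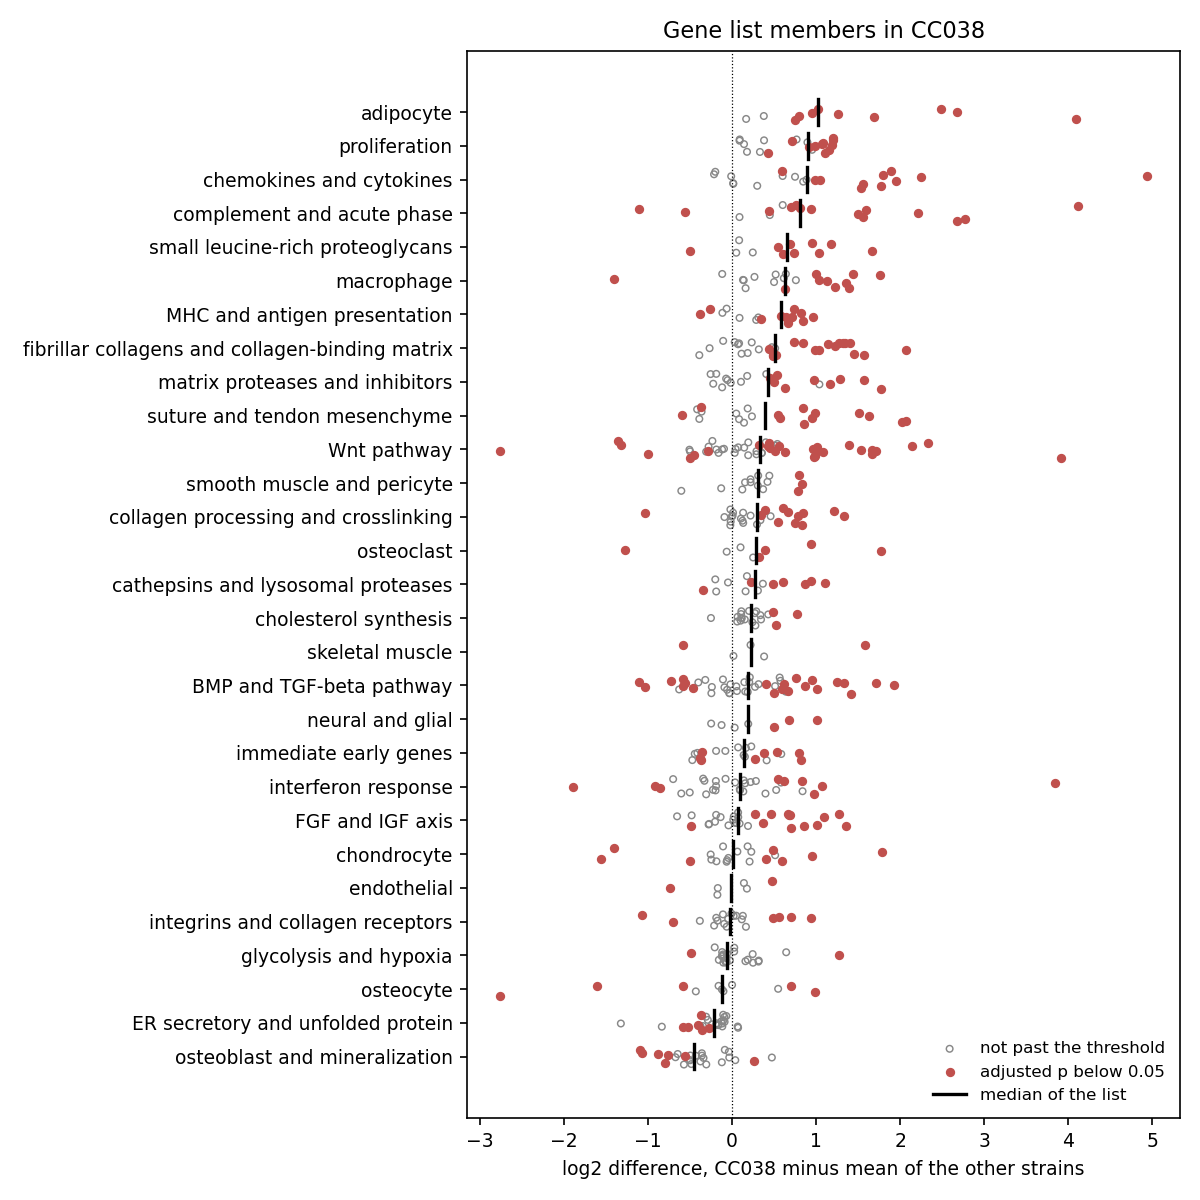
Log2 difference of CC038 from the mean of the other strains on the x axis for every tested member of each gene list with 5 or more tested members, one list per row. Filled red points passed the test, open points did not, and the black tick is the list's median, which is 0.51 for collagens and -0.46 for osteoblast genes.

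Tendon and suture genes were higher in 10 of 20 tested members and lower in 2. Tnmd (tenomodulin), a membrane protein of tendon and ligament cells, stood at 234.7, 395, 475 and 325 scaled TPM, against 32.5 to 380.0 (median 113). CC038 was the highest strain for Tnmd, with a difference of 1.63 ± 0.26 (adjusted p 3.64e-06), and replicates 2 and 3 lay above every other library. Prrx1, a transcription factor of limb and skull mesenchyme, stood at 104, 87.7, 98.6 and 87.6, against 36.1 to 85.3 (median 64.3), with no overlap and a difference of 0.57 ± 0.06. The tendon transcription factor Mkx rose by 0.95 ± 0.21, and Cilp, Cilp2 and Htra3 rose by 2.03 ± 0.31, 1.51 ± 0.25 and 0.85 ± 0.12. Scx (scleraxis), the best-known tendon transcription factor, did not pass, at -0.42 ± 0.16. Postn (periostin) did not pass either, at 0.08 ± 0.14. Gli1, a hedgehog target and a marker of suture stem cells, was lower at -0.60 ± 0.17, a call lost without replicate 4.

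Wnt pathway genes were called in 28 of 50 tested members, 21 higher (42%, against 16.1% of all genes) and 7 lower. The lower share, 14%, was near the 14.2% of all genes. Among ligands, Wnt16, which is known for its effect on cortical bone, stood at 7.34, 12.6, 12.3 and 6.72 scaled TPM, against 0.794 to 7.90 (median 2.30). Replicates 2 and 3 lay above every other library, and the difference was 1.71 ± 0.22 (adjusted p 2.32e-08). Wnt2b stood at 1.49, 2.26, 1.71 and 2.30, against 0.0592 to 1.49 (median 0.215), and its lowest library only just cleared the others, with a difference of 1.66 ± 0.12. Wnt10b, a ligand that favours bone over fat, went the other way, at 6.39, 1.75, 1.92 and 2.51 against 0.513 to 11.4 (median 7.09). Replicate 1 was the highest of the 4 for Wnt10b, and the difference was -1.0 ± 0.24. The R-spondins, which prolong Wnt signals, rose together: Rspo1 by 1.01 ± 0.16, Rspo2 by 1.67 ± 0.23 and Rspo3 by 1.09 ± 0.28.

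Among Wnt receptors, Lgr5, an R-spondin receptor, rose from a median of 1.37 scaled TPM in the other libraries to 11.5, 8.99, 11.9 and 9.27, a difference of 2.14 ± 0.26 (adjusted p 3.74e-09). CC038 ranked 5 of the 39 strains for Lgr5, so other strains reached higher. Its relative Lgr6 was lower, at 0.966, 0.273, 0.30 and 0.458 against 0.301 to 10.6 (median 1.89), with a difference of -1.32 ± 0.28. Fzd1, Fzd4, Lrp6 and Ror1 rose by 0.63 ± 0.14, 0.98 ± 0.19, 0.32 ± 0.05 and 1.01 ± 0.14, and Fzd6 fell by 0.46 ± 0.09 on the log2 scale.

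Secreted Wnt antagonists showed the widest changes of the pathway, in both directions. Sfrp1 stood at 40.8, 157, 181 and 64.6 scaled TPM, against 0.688 to 69.6 (median 6.40). Replicates 2 and 3 were above every other library while 1 and 4 were within their upper range, and the difference was 3.91 ± 0.51 (adjusted p 3.79e-08), the highest of the 39 strains. Sfrp2 stood at 248.6, 706, 1116 and 406, against 12.5 to 859.8 (median 99.2), with a difference of 2.33 ± 0.41. Dkk2 stood at 24.4, 17.2, 15.7 and 16.1, against 1.68 to 21.6 (median 5.40), with a difference of 1.54 ± 0.25. Sost (sclerostin), the antagonist made by osteocytes, stood at 2.08, 0.362, 0.567 and 0.778, against 0 to 123 (median 9.97). All 4 libraries were far under the median of the other strains, though inside their range, with a difference of -2.76 ± 0.57 (adjusted p 0.000318). Dkk1 also read lower, at -1.36 ± 0.48, but the call was lost without replicate 2, 3 or 4. The Wnt target genes Axin2, Nkd2 and Apcdd1 rose by 0.99 ± 0.25, 0.97 ± 0.17 and 1.39 ± 0.29. Of the 28 calls in the pathway 23 were kept in every leave-one-out fit and 24 with the title number range as covariate.

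**Figure D4:**
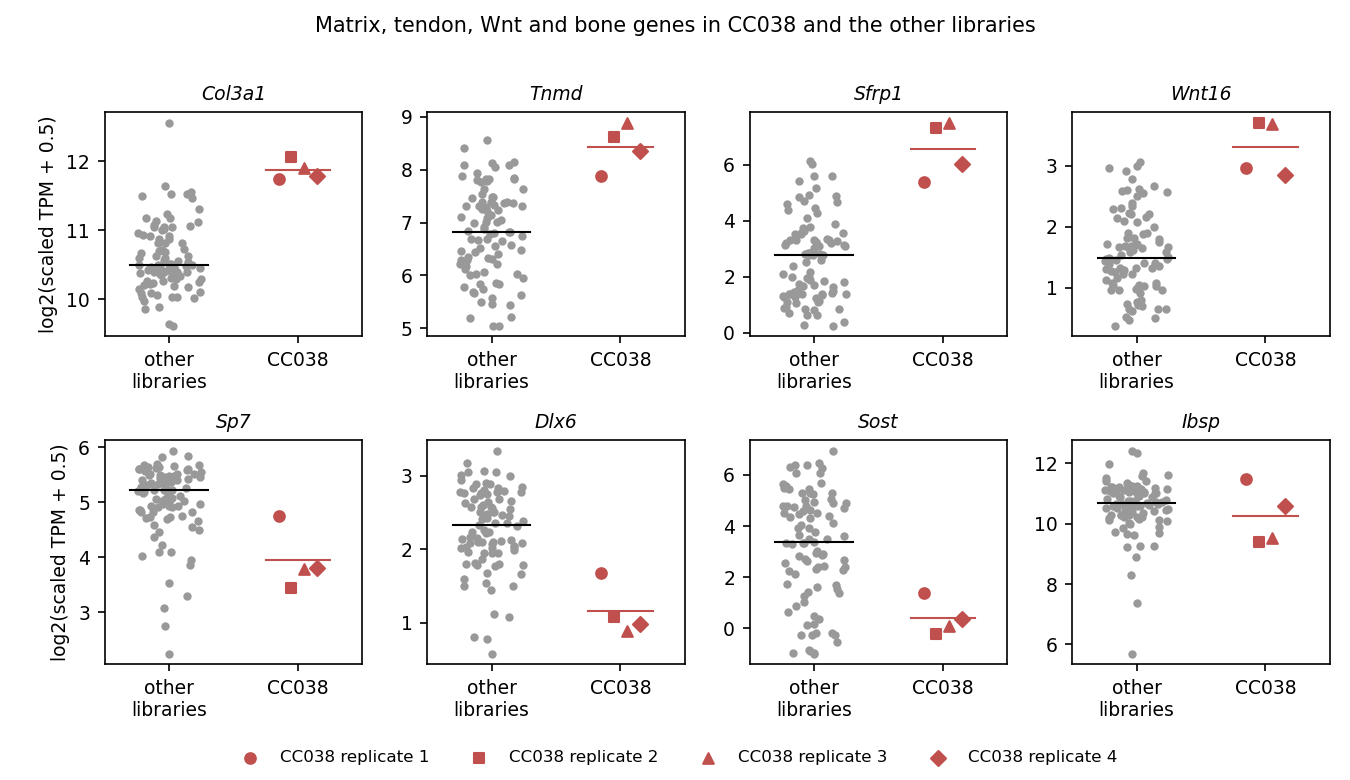
Levels of 8 genes on the y axis, as log2 of scaled TPM plus 0.5, in the 91 other libraries (grey, black bar at the median) and in the 4 CC038 libraries (red, bar at the mean, one marker shape per library). Col3a1, Tnmd, Sfrp1 and Wnt16 lie high, Sp7, Dlx6 and Sost lie low, and the 4 Ibsp values spread across the range of the other libraries.

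Osteoblast and mineralization genes had 6 of 26 members lower and 1 higher in CC038, and the median difference was -0.46. Sp7, the osteoblast transcription factor osterix, stood at 26.5, 10.4, 13.3 and 13.5 scaled TPM, against 4.21 to 61 (median 36.8). Replicate 1 was the highest of the 4 but still under the median of the other strains, and the difference was -1.07 ± 0.23 (adjusted p 0.000488). Dlx6, a homeobox factor of craniofacial bone, stood at 2.70, 1.61, 1.36 and 1.47, against 0.992 to 9.61 (median 4.50), with a difference of -1.10 ± 0.20. Enpp1, which makes the mineralization inhibitor pyrophosphate, was lower at -0.76 ± 0.22, a call lost without replicate 3. Dlx5 and Phospho1 were lower at -0.56 ± 0.18 and -0.88 ± 0.30, but these calls did not last when replicate 2, 3 or 4 was left out. Only 2 of the 7 calls in this list were kept in every leave-one-out fit. The median over the list was -0.01 in replicate 1 and -0.77, -0.62 and -0.42 in replicates 2, 3 and 4. Runx2 and Spp1 (osteopontin) did not pass, at -0.36 ± 0.16 and -0.67 ± 0.32. Bglap (osteocalcin) did not pass at -0.65 ± 0.50, and it shares most of its sequence with its neighbouring copies.

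Osteocyte genes were mixed, with 2 of 11 tested members higher and 3 lower (18.2% and 27.3%, against 16.1% and 14.2% of all genes). Fgf23, 1 of the 11, passed the filter on low values only through CC038 and so could only be higher. Ptprz1, a receptor phosphatase, stood at 14.2, 3.81, 5.44 and 7.69 scaled TPM, against 0.281 to 74.1 (median 26.8), and differed by -1.61 ± 0.44, a call lost without replicate 2. Tnfrsf11b (osteoprotegerin), the decoy that blocks osteoclast formation, was higher at 0.99 ± 0.27, a call lost without replicate 1. Dmp1, a matrix phosphoprotein of osteocytes, did not pass at 0.55 ± 0.45 and varied among the 4 libraries from 17.9 in replicate 4 to 98.1 in replicate 1. Cartilage genes also split, with 5 of 20 higher and 3 lower, near the shares of all genes (16.1% and 14.2%). Snorc, 1 of the 20, passed the filter only through CC038 and so could only be higher. Of the 8 cartilage calls 4 were kept in every leave-one-out fit, and with the title number range as covariate 2 were higher and 2 lower. Matn4 (matrilin-4) stood at 182, 283, 336 and 217, against 20.1 to 181 (median 77.5), a rise of 1.79 ± 0.27 with its lowest library level with the highest of the others. Acan (aggrecan) and Col10a1, the collagen of hypertrophic cartilage, were each lowest of the 39 strains in CC038. Acan stood at 1.86, 0.964, 0.873 and 0.647, against 0.108 to 22.6 (median 3.45), and Col10a1 at 1.58, 0.781, 1.15 and 1.08, against 0.219 to 34.3 (median 4.68). Both lay under the median of the other strains in all 4 libraries, with differences of -1.40 ± 0.25 and -1.56 ± 0.37.

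BMP and TGF-beta genes were called in 21 of 46 members, 14 higher (30.4%, against 16.1% of all genes) and 7 lower. The lower share, 15.2%, was near the 14.2% of all genes. Tgfb3, a TGF-beta ligand, stood at 56.5, 46.6, 49.5 and 39.6 scaled TPM, against 18.8 to 54.3 (median 27.5), and CC038 was the highest strain with a difference of 0.76 ± 0.09. The co-receptor Tgfbr3 (betaglycan) rose by 1.42 ± 0.23 and the secreted Fstl1 by 1.25 ± 0.22. Ltbp2, which binds microfibrils, rose by 1.71 ± 0.30. Among BMP antagonists Nog (noggin) was lower, at 6.03, 1.92, 2.65 and 3.40 against 1.45 to 18.6 (median 8.26), with a difference of -1.11 ± 0.22, while Chrd (chordin) and Fst (follistatin) were higher, at 0.50 ± 0.12 and 0.86 ± 0.17. The BMP target Id3 fell by 0.59 ± 0.14 on the log2 scale and Id4 rose by 1.33 ± 0.26. Of the 21 calls 12 were kept in every leave-one-out fit, and with the title number range as covariate 13 were higher and 2 lower.

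In the FGF and IGF axis 12 of 29 tested members were higher and 1 lower, with a median difference of 0.07. Of the 13 calls 8 were kept in every leave-one-out fit and 11 with the title number range as covariate. Igfbp4, which binds and holds IGF, stood at 670.3, 858, 1027 and 839 scaled TPM, against 132.1 to 801 (median 356), with only replicate 1 inside that range and a difference of 1.27 ± 0.14 (adjusted p 2.19e-10). Igf1 itself stood at 40.2, 41.4, 36.8 and 38.8, against 7.23 to 44.9 (median 17.0), the highest of the 39 strains at 1.09 ± 0.17. Igfbp3, Fgfrl1 and Fgf2 rose by 1.36 ± 0.28, 0.86 ± 0.14 and 0.67 ± 0.12. Fgf23, the phosphate-lowering hormone of osteocytes, passed even with the spread between strains as error (adjusted p 0.000438), but stayed below 1 scaled TPM in every CC038 library and entered the test only through them. Integrins and collagen receptors had 4 of 20 members higher and 2 lower, shares near those of all genes. Itga1, a collagen-binding integrin chain, rose by 0.94 ± 0.14, whereas the collagen-binding Itga10 and the laminin-binding Itga6 fell, with differences of -1.07 ± 0.26 and -0.70 ± 0.14.

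Complement and acute phase genes were higher in 12 of 17 members and lower in 2, with a median difference of 0.81. Orm1, 1 of the 17, passed the filter on low values only through CC038 and so could only be higher. C3, the central complement protein, stood at 6.92, 23.3, 22.5 and 15.2 scaled TPM, against 0.0122 to 51.6 (median 1.39). Replicate 1 was the lowest of the 4 and yet above the median of the others, and the difference was 2.78 ± 0.47 (adjusted p 1.13e-05). Hp (haptoglobin), which binds free haemoglobin, stood at 0.661, 47.8, 70.7 and 6.40, against 0 to 30.9 (median 0.123). Its difference of 4.12 ± 0.51 came mainly from replicates 2 and 3, and replicate 1 lay close to the other strains. The C1 inhibitor Serping1 stood at 66.5, 132.05, 136 and 97.1, against 3.96 to 193.4 (median 34.2), with a difference of 1.56 ± 0.23. C4b and Cfb also read higher, at 2.68 ± 0.38 and 2.21 ± 0.37, but share 48.3% and 75.5% of their sequence with another gene, so reads could have been divided between copies. Cp (ceruloplasmin), a copper-carrying ferroxidase, was lower, at 6.26, 11.4, 11.7 and 9.10 against 3.65 to 77.4 (median 21.2), a difference of -1.11 ± 0.18. Of the 14 calls 12 were kept in every leave-one-out fit and 12 with the title number range as covariate.

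Chemokines and cytokines were higher in 11 of 21 tested members and lower in 0, with a median of 0.89. Ccl8, a chemokine that draws monocytes, had the largest positive difference of the genes named by size, 4.94 ± 0.58 (adjusted p 2.1e-09). Its CC038 values were 17.9, 225, 187.2 and 60.0 scaled TPM, against 0 to 109 (median 1.49). Replicates 2 and 3 lay above every other library, 1 and 4 did not, and 1 other strain had a higher mean. Cxcl12, the stromal chemokine that retains blood progenitors, stood at 33.6, 101, 127 and 64.1, against 5.19 to 88.7 (median 25.9), a rise of 1.56 ± 0.25 and the highest of the 39 strains. Cxcl14, Ccl11, Il33 and Il34 rose by 1.90 ± 0.33, 2.24 ± 0.32, 1.53 ± 0.24 and 1.05 ± 0.21, each the highest strain mean. Ccl2 and Ccl7 read 1.80 ± 0.51 and 1.95 ± 0.50, and the Ccl2 call was lost with the title number range as covariate.

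Interferon-induced genes moved in both directions, 6 of 32 higher and 3 lower, which is near the share of all genes, and with the title number range as covariate the split was 2 higher and 6 lower. Ifi27l2a stood at 59.5, 312, 312 and 171 scaled TPM, against 0 to 499.9 (median 13.3), and Ifi44 at 0.395, 0.204, 0.457 and 0.855, against 0.438 to 19.9 (median 2.75). The first was highest of the 39 strains at 3.84 ± 0.44 and the second lowest at -1.89 ± 0.29. The antiviral GTPases Mx1 and Mx2 were lower at -0.86 ± 0.23 and -0.92 ± 0.24, whereas the transcription factor Irf1 was higher at 0.61 ± 0.13. Gbp2b, a guanylate-binding GTPase outside the fixed list, was the most even of the large rises, at 6.15, 6.04, 5.92 and 5.88, against 0 to 6.53 (median 0.0665), with a difference of 3.16 ± 0.18. Genes of antigen presentation were higher in 10 of 17 tested members and lower in 2. Only 5 of these 12 calls were kept in every leave-one-out fit, 5 members were higher with the title number range as covariate, and 0 were lower with the TPM as deposited or rescaled over protein-coding genes. The class I genes H2-K1 and H2-D1 rose by 0.74 ± 0.13 and 0.82 ± 0.14, and both share part of their sequence with related class I genes (22.8% and 26.7%). B2m, the common light chain, read lower at -0.26 ± 0.08, a call lost with either other scaling and without replicate 1, 2 or 3.

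Macrophage markers were counted in the same way, and their part in the results was not tested. Of 20 markers 9 were higher and 1 was lower, and the summed level was 542, 2306, 1467 and 1279 scaled TPM in CC038, against strain means of 74.9 to 5681 with a median of 495. CC038 ranked 10 of the 39 strains by that sum, and the sum in replicate 1 lay close to the strain median. Lyz2, a lysozyme of macrophages, stood at 337, 1286, 795 and 712, against 16.9 to 3701 (median 222), with a difference of 1.39 ± 0.33. Mrc1 and C1qa read 1.76 ± 0.40 and 1.22 ± 0.33, and Csf1r, which defines the lineage, and Ptprc (CD45) did not pass, at 0.64 ± 0.28 and 0.27 ± 0.23. The C1qa call was lost without replicate 2. Cx3cr1 was the lower member, at -1.40 ± 0.28. The median over the list was 1.45, 0.96 and 0.69 in replicates 2, 3 and 4 and -0.39 in replicate 1. With the title number range as covariate 1 of the 10 calls was kept, and in every leave-one-out fit 4 were kept.

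Adipocyte markers were higher in 9 of 11 tested members and lower in 0, with a median of 1.02, and their part in the other results was not tested. Their levels were highest in replicates 2 and 3. Fabp4, a fatty acid carrier, stood at 4.24, 84.4, 142 and 10.2 scaled TPM, against 0.0564 to 59.2 (median 0.894). The secreted adipocyte proteins Adipoq (adiponectin) and Cfd (adipsin) stood at 0.0645, 9.82, 12.6 and 0.792 and 0.0926, 10.4, 14.8 and 0.964, against medians of 0 and maxima of 16.8 and 14.7 in the other libraries. In all 3 genes replicates 2 and 3 were far above 1 and 4, so the differences of 4.10 ± 0.56, 2.49 ± 0.43 and 2.68 ± 0.43 describe a pair of libraries more than the strain. The summed level was 34.5, 214, 288 and 70.4, against strain means of 17.8 to 106 with a median of 37.2. Pparg, the master regulator of fat cells, did not pass, at 0.38 ± 0.21. The lipase gene Lpl, the droplet coat gene Plin4, the fatty acid transporter gene Cd36 and the transcription factor gene Cebpa lost their calls without replicate 2 or without replicate 3. Adipoq, Cfd, Plin1 and Cidec also passed with the spread between strains as error, with limma adjusted p of 4.62e-05, 5.87e-08, 1.92e-06 and 1.07e-05. That error uses 1 mean per strain and cannot see the split among the CC038 libraries, so these p-values do not bear on it.

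**Figure D5:**
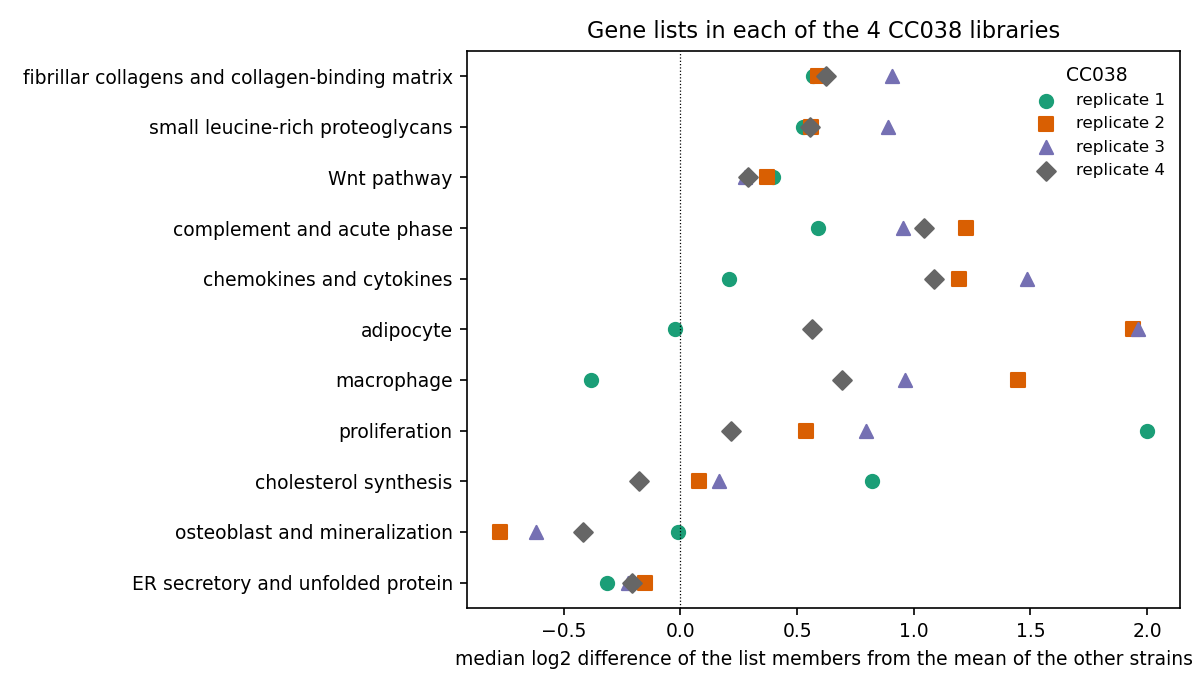
Median log2 difference of a list's tested members from the mean of the other strains (x axis) in each of the 4 CC038 libraries, one list per row and one marker per library. Collagen medians lie between 0.57 and 0.91 in all 4 libraries, adipocyte medians at 1.94 and 1.96 in replicates 2 and 3 only, and the proliferation median at 2.00 in replicate 1.

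Replicate 1 differed from the other 3 in proliferation genes. Of 20 members 11 were called higher and 0 lower, but without replicate 1 none of these 11 calls was kept. Top2a, the topoisomerase of dividing cells, stood at 56.7, 17.9, 20.7 and 12.7 scaled TPM, against 3.69 to 55.1 (median 9.18). Cdk1, the mitotic kinase, stood at 58.8, 22.0, 25.1 and 16.2, against 6.09 to 70.8 (median 11.6). Replicate 1 was the highest of the 4 by a wide margin in both, and the other 3 lay above the median of the other strains. The median of the list was 2.00 in replicate 1 and 0.54, 0.80 and 0.22 in replicates 2, 3 and 4. Smooth muscle genes had 3 of 14 members higher (21.4%, near the 16.1% of all genes) and 0 lower. Their summed level of 1754, 788, 849 and 864 was also highest in replicate 1. Cholesterol synthesis genes had 3 of 20 higher and 0 lower, near the share of all genes, and of these only the sterol carrier Stard4, at 0.78 ± 0.15, kept its call in every leave-one-out fit.

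Genes of the secretory pathway had 6 of 26 members lower (14.2% of all genes were) and 0 higher, and the median difference was -0.21. With the TPM as deposited 3 were lower. Hsp90b1, the endoplasmic reticulum form of HSP90, stood at 244, 289, 250.6 and 262 scaled TPM, against 196 to 584 (median 381). Canx (calnexin), a folding lectin, stood at 157, 159, 146 and 152.5, against 137 to 263.6 (median 199). Both lay near the bottom of the other strains' range in all 4 libraries, with differences of -0.52 ± 0.12 and -0.37 ± 0.06. Hyou1, Dnajb11 and Sec61a1 fell by 0.59, 0.35 and 0.27 on the log2 scale, and the calls of Dnajb11 and Sec61a1 were lost with the TPM as deposited. Hspa5 (BiP), the best-known of the group, did not pass, at -0.35 ± 0.16. Glycolysis and hypoxia genes had 1 of 23 higher (Adm) and 1 lower (Gapdh), and neither call was kept in every leave-one-out fit. Immediate early genes had 5 of 21 higher and 3 lower, near the shares of all genes, and 2 of the 8 calls were kept in every leave-one-out fit, with the AP-1 member Fosl2 at 0.79 ± 0.16.

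Markers of other cell types were tested in part. Of 11 endothelial markers 6 were tested, with 1 higher and 1 lower, and their summed level was 1.57, 2.30, 3.15 and 2.27 scaled TPM. Of 12 skeletal muscle markers 5 were tested, with 1 higher (the perinatal myosin Myh8, 1.58 ± 0.27) and 1 lower, and a summed level of 2.73, 5.37, 7.02 and 2.35, against strain means of 1.08 to 7.62 (rank 3 of the 39). Of 11 neural and glial markers 7 were tested and 3 were higher, among them S100b at 1.01 ± 0.17. Their summed level was 16.2, 18.0, 20.8 and 15.2, against strain means of 6.07 to 19.9 with a median of 12.0 (rank 3 of the 39), and their part in the other results was not tested. Epidermal markers had 1 of 4 tested members higher and 2 lower, and erythroid markers 0 of 2 in either direction, with sums near 1 scaled TPM or less. Over all 31 lists, 570 of 623 genes were tested, and 253 of them (44.4%) were called, 200 higher and 53 lower, against 30.3% of all genes tested; the lists were chosen with earlier results known. Of the 570, 3 (Fgf23, Orm1 and Snorc) passed the filter on low values only through CC038 and so had to be higher there.

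Further genes with large differences lay outside these lists. Clec3b (tetranectin), a plasminogen-binding protein, stood at 2.46, 15.8, 21 and 8.59 scaled TPM, against 0 to 6.37 (median 0.153), a rise of 3.46 ± 0.35. Rarres2 (chemerin), a chemoattractant made by fat and stromal cells, stood at 51.1, 182, 144 and 110.2, against 2.12 to 142.6 (median 10.4), a rise of 3.18 ± 0.34. Replicate 1 was lowest of the 4 in both, inside the range of the other strains. Chil1, Wfdc17 and Egfl6 rose by 3.07 ± 0.35, 3.06 ± 0.45 and 3.01 ± 0.58. Lyz1 read 3.96 ± 0.32 and shares 34.2% of its sequence with Lyz2. Among lower genes, Car6, a secreted carbonic anhydrase, stood at 0.464, 2.24, 0.242 and 4.72, against 0.0738 to 40.6 (median 12.6), and was lowest of the 39 strains at -2.78 ± 0.32. Cox4i2, a subunit variant of cytochrome oxidase, stood at 9.14, 5.33, 5.21 and 9.88, against 2.92 to 86.6 (median 43.9), and Avil (advillin), an actin-binding protein, at 7.48, 4.13, 2.37 and 16.3, against 0.432 to 82.6 (median 42.9). All 4 libraries lay well below the median of the other strains in both, with differences of -2.23 ± 0.20 and -2.46 ± 0.33. Cdsn (corneodesmosin) fell by 2.77 ± 0.37 on the log2 scale.

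The genes with the most negative differences of all are uncertain. Near-identical copies could have taken the reads of the small RNA genes and pseudogenes among them. Rnu3b2, a U3 small nucleolar RNA gene identical to another copy, read -8.19 ± 0.27, and the U1 genes Rnu1b1, Rnu1b2 and Rnu1b6 read -4.77, -4.77 and -5.02. Eif4a-ps4 and Rpl19-ps11 are pseudogenes of Eif4a1 and Rpl19. The ribosomal protein genes Rpl21, Rps25 and Rps6 and the ATP synthase gene Atp5g2 read -3.81, -2.81, -2.44 and -3.39. These genes share 16.9%, 16.0%, 45.0% and 40.2% of their sequence with other genes. Their levels ran against those of an unmatched transcript, picked for each gene from these data as the most negatively correlated one. Its sequence was not compared. Once both were summed the differences were 0.01, -0.35, -0.40 and -0.40, and whether reads were divided between them was not tested. Rps13, among the 15 largest rises at 3.94, read -0.31 when summed in the same way. Hist2h2aa1, a histone gene, read 3.85 and shares 89.7% of its sequence with another gene.

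Of the genes that passed with the spread between strains as error, few were well expressed. Accs (adjusted p 0.00481), Fam69a (0.0238), Hp (6.4e-05) and Clstn1 (0.0436) were higher, with Adipoq and Cfd, and these 6 were the ones with a CC038 mean of at least 5 scaled TPM. Clstn1 (calsyntenin-1), a cadherin-like protein, stood at 34.5, 37.6, 43.0 and 40.1 scaled TPM, against 15.1 to 31.6 (median 23.9), without overlap and with a difference of 0.72 ± 0.10. Chl1, a cell adhesion molecule, stood at 0.958, 7.29, 7.72 and 3.47, against 0.00400 to 1.67 (median 0.0868), a rise of 2.78 ± 0.19 (adjusted p 6.99e-08 by the same error). Replicate 1 was the only one of the 4 inside the range of the others. The 8 lower genes were Manea, Ptrh2, Mthfsd, Znhit3 and 4 copies of small RNA genes or pseudogenes. Manea, which encodes a Golgi mannosidase, stood at 1.76, 1.38, 2.59 and 2.06, against 1.67 to 11.1 (median 8.19), a difference of -1.78 ± 0.08 (adjusted p 0.00358 by the same error). Clstn1, Chl1, Znhit3 and Manea are named here after their values were seen.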

How the data were processed

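The data were total RNA-seq of 96 samples, with libraries made by a stranded ribosomal RNA depletion kit, per the labels' protocols. The deposited table holds 1 value per transcript and sample; its name speaks of counts, but every column sums to 1000000, so the values were taken as TPM as the authors deposited them. Bowtie and mm9 are named in the submitters' processing notes without their role, and the program behind the TPM is not stated in them. TPM carry no read depth, so no counting interval was computed.

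Transcripts were summed per gene with GENCODE M21 (91225 of 94545 matched, a median of 98.2% of each library's TPM), and 2 samples of strain CC030 whose titles differ only by a suffix were averaged as 1, which left 95 libraries. Columns were divided by a factor from a trimmed mean of log ratios, giving scaled TPM. The factors were 0.772 to 1.27, with 30% of ratios and 5% of levels trimmed, over genes averaging 1 TPM or more. Genes with at least 0.5 TPM in 2 libraries were kept (15732, of which 71 passed only with the CC038 libraries). Differences were fitted on log2(scaled TPM + 0.5), a scale that understates the change of low genes, with limma 3.58.1 in R 4.3.3 (trended prior, 1 mean per strain, 39 strains with 2 or more libraries, 53 residual degrees of freedom). P-values were adjusted over all genes and all 39 strain contrasts, with 0.05 as threshold. Data simulated for the CC038 contrast with 15732 genes, 50 changed at each fold, gave back 70% of 1.5-fold, 90% of 2-fold, 100% of 4-fold and 96% of 8-fold changes, with 0 false calls. Noise was drawn independently for each gene and library, with no differences among the other strains. The 0 false calls therefore do not measure the error in the real data.

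The named genes are the 15 largest and 15 most negative differences (called, established symbol, at least 5 scaled TPM in CC038 or in the other strains, all 4 libraries on one side), the 10 widest gaps in each direction, and members of the gene lists that passed or are best known; 2 members are counted in their lists but not reported here by name. Genes that share over 50% of their 31-base words with another gene are given as uncertain. So are genes whose level had a correlation below -0.7 with an unmatched transcript across libraries. CC038 and the gene lists were chosen with earlier results of these data known. Promoter windows are RefSeq sequence of GRCm38.p6, a build other than mm9, and no coordinate was taken from the deposited table. The alternatives changed the scaling, pseudocount, filter, libraries, title number range (a covariate of 4 ranges), error term, adjustment and unmatched transcripts.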

Additional observations from a re-analysis of the deposited data

Results flagged for a closer look

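In 11 of the 210 genes named (5.24%), 1 CC038 library lay so far from the other 3 that the gap passed Dixon's 95% limit for 4 values. Chance flags about 1 in 20 groups, so a share of this size is no result about the libraries. Replicate 1 stood alone in 7 of them. It was high for Dkk1 (18.5 scaled TPM), Loxl4 (55.8), Phospho1 (46.2), Scx (8.96) and Wnt10b (6.39), and low for the chemokine Ccl7 (21.1) and the microfibril protein Ltbp2 (49.9). Replicate 3 was high for the proteoglycan Ogn (409) and for Abhd11os (6.21). Replicate 4 was low for the class I gene H2-K1 (96.04) and high for the antiviral gene Mx2 (1.23). The negative calls of Dkk1, Loxl4 and Phospho1 were lost when a library other than replicate 1 was left out, as given beside those genes.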

How the results depend on the processing

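With the spread between strains as error, 55 genes were higher and 8 lower, and 8 of the 253 list calls remained. With the TPM as deposited 1474 genes were lower, and 14 genes had all 4 libraries above and 6 below every other library; with the title number range as covariate 1484 were lower and Ptprc, which was not called, turned to -0.10. Leaving out 1 CC038 library gave 1896 to 2392 genes higher, 1649 to 2008 lower, 39 to 76 above and 13 to 29 below every other library. The counts above and below can only stay or rise when a CC038 library is left out. The mean distance among CC038 libraries, 0.0218, was 0.0310 with a pseudocount of 0.1, 0.0116 with no filter and 0.0318 with a mean of at least 1 TPM. The cause was not tested. The other alternatives kept these results within 1.5 times, and scaling moved the median of all genes by up to 0.04 (log2). Of 253 list calls, 241 were kept with the TPM as deposited and 160 in every leave-one-out fit; for the lists, the covariate, the error term, the adjustment and the unmatched transcripts were alternatives chosen after seeing the data. No paired analysis was possible because the replicate numbers only follow accession order.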

Other observations

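Of the genes outside the lists that passed with the spread between strains as error, 6 are given here, chosen after their values were seen. Lipe (hormone-sensitive lipase) stood at 1.20, 4.03, 5.04 and 1.82 scaled TPM in replicates 1 to 4, against 0.652 to 3.46 (median 1.09) in the other libraries. Gpd1, which makes the glycerol backbone of fat, stood at 0.113, 2.21, 2.41 and 0.199, against 0 to 2.34 (median 0.178), and Aoc3, an amine oxidase of fat and vessel cells, at 2.17, 5.70, 6.92 and 2.98, against 0.0347 to 4.05 (median 0.251). Their differences were 0.98 ± 0.15, 0.96 ± 0.21 and 2.44 ± 0.23 (limma adjusted p 1.79e-06, 0.000785 and 1.82e-12), and the Gpd1 call was lost without replicate 2 or without replicate 3. Aoc3 was the only one of the 3 whose replicates 1 and 4 also lay far above the median of the other libraries.

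Lrg1, an acute phase glycoprotein, stood at 0.0410, 1.46, 2.54 and 0.320 scaled TPM, against 0 to 0.424 (median 0), a difference of 1.29 ± 0.15. Col28a1, a collagen chain known from nerve sheaths, stood at 0.315, 3.38, 4.18 and 0.822, against 0 to 1.42 (median 0.104), a difference of 1.67 ± 0.23. In both genes replicates 2 and 3 exceeded every other library and replicates 1 and 4 did not. Bmx, a tyrosine kinase, stood at 0.0889, 0.577, 1.22 and 0.273, against 0 to 0.182 (median 0.0148), with only replicate 1 inside that range. All 6 genes passed with the spread between strains as error (adjusted p 0.0106, 0.0236, 0.0127, 1.68e-10, 0.00391 and 9.67e-07). Lrg1 and Bmx passed the filter on low values only through CC038 and so had to be higher there.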
